A study of Mus musculus with 12 samples.

Results

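The genes described here encode the subunits of NF-kB and the proteins that hold it back or steer it. They are the subunit genes Nfkb1, Nfkb2, Rel, Rela and Relb, the inhibitor genes Nfkbia, Nfkbib and Nfkbie, and the genes of the atypical, nuclear IkB proteins, Nfkbiz and Bcl3. The members were taken as every probe set to which the array annotation gives exactly 1 symbol, equal to one of these names. Of the 10 genes, 9 had such a probe set, 18 in all, among 18194 genes and 45101 probe sets. Nfkb1 is not analysed here.

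The study put RNA from blood cells of mice on Affymetrix arrays, 12 in all, which hold 1 sample each and form 4 groups of 3. Each group is a genotype, control or lacking Stat5a and Stat5b, with a plus or a minus sign in the array title. The treatment protocols read the sign as given or not given CMP. What CMP stands for, the type of blood cell, the way Stat5 was removed, and the strain and age of the mice are not given in the sources used here. The groups are called control minus, control plus, knockout minus and knockout plus. By the form of their titles the arrays also fall into 3 naming sets, here A, B and C, of 1 array per group. Nothing in the labels says that the arrays of a group came from separate animals or cultures, so the p-values measure only the spread between these samples, which may be technical.

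NF-kB is a dimer of Rel-family subunits that waits in the cytoplasm, bound by IkB proteins, until a signal from a cytokine or microbial receptor has the IkB protein degraded. In the canonical pathway the dimers of RelA or c-Rel with p50 are freed from IkB-alpha, IkB-beta or IkB-epsilon. In the slower non-canonical pathway the p100 product of Nfkb2 is processed to p52, which pairs with RelB. Many genes of the pathway carry kappaB sites and are themselves targets of NF-kB, with Nfkbia the textbook case of a negative feedback loop.

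Promoter sequence shows how much of this wiring can be read in the DNA next to the members. The following stretches, 5′ to 3′ on the strand of the gene, come from RefSeq (GRCm38.p6) and were chosen because they hold matches to the kappaB consensus, in capitals. In Nfkb2 the match nearest the left end, also in capitals, is instead the STAT5 motif TTCNNNGAA.
Nfkb2: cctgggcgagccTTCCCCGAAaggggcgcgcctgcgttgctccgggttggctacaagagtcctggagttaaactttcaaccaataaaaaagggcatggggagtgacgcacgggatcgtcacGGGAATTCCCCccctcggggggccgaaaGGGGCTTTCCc
Nfkbia: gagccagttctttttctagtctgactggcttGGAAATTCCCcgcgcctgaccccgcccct
Rel: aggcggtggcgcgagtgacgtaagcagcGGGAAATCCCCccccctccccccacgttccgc
Nfkbie: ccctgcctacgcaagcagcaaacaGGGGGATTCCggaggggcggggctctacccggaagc
Bcl3: agtcggcggcagGGGAAGTCCCgctgcccg
These stretches lie at chr19:46304577-46304736 on the plus strand (Nfkb2), chr12:55492648-55492707 on the minus strand (Nfkbia), chr11:23771030-23771089 on the minus strand (Rel), chr17:45555570-45555629 on the plus strand (Nfkbie) and chr7:19822736-19822765 on the minus strand (Bcl3). Those of Nfkbia, Rel and Nfkbie lie just outside the gene, before its annotated start. Those of Nfkb2, before 1 of its 3 starts in the table, and of Bcl3, across a start, lie within the span of the gene. Over windows of 250 bases before to 50 after the start, 4.51% of 32851 promoters held the kappaB consensus on either strand. Among the members, 7 had a promoter in the table, and 5 of these held the consensus, all but Rela and Nfkbib. Counted by start, as the 32851 promoters are, 7 of 9 member promoters held it. Relb, Nfkbiz and Nfkb1 had no promoter in the table. TTCNNNGAA was found in 8.3% of all promoters and in 1 of the 9 member promoters, of Nfkb2. A match is a description of the letters and was not tested for binding.

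The genotype labels were checked on the deleted genes. Stat5a read 660 to 1436 in the 6 control arrays against 28.9 to 90.1 in the 6 knockout arrays, and Stat5b 1036 to 2177 against 7.28 to 82.8. The treatment protocol of the knockout minus array of set B calls it a control. It was grouped by title, and it had the low signals of a knockout. All 5 pan-leukocyte markers (Ptprc, Cd53, Laptm5, Coro1a, Spi1) and all 5 progenitor markers (Kit, Cd34, Myb, Gata2, Flt3) were above the level filter, while 0 of the 4 measured T cell markers were. So were all 6 neutrophil, all 5 megakaryocyte and all 4 measured mast cell and basophil markers, and 4 of 5 monocyte and macrophage markers. The filter thus does not single out 1 cell type. Array medians ranged from 59.7 to 114, each array has a 2% trimmed mean of 500, and arrays have no counting depth, so that their number limits the precision. Set B stood apart in the log2 ratio of the 3′ to the 5′ beta-actin control probe set, at 4.30 to 5.78 there and 0.25 to 2.14 in sets A and C. The highest signal of an array was also larger in set B, at 59691 to 126575 against 19105 to 26874. The cause of these differences, such as RNA quality or labelling, was not tested. Within every one of the 6 pairs of a plus and a minus array of 1 genotype and set, the beta-actin ratio was higher in the plus array, by 0.24 to 1.63.

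With each gene read from its brightest probe set, Relb and Bcl3 were the members called between plus and minus arrays. Both were higher in the plus arrays, in the controls and again in the knockouts. Relb, the subunit that partners p52 in the non-canonical pathway, rose by 3.30 ± 0.61 in the controls and 2.54 ± 0.61 in the knockouts, on the log2 scale, from signals so low that its fold moves with the constant added to the signals. Bcl3, a nuclear IkB protein that binds p50 and p52 dimers and can activate transcription, rose 3.55-fold and 4.17-fold. The other 7 members with a probe set did not pass the test in either genotype. A dimmer probe set of Nfkb2 was called in both genotypes in a fit over probe sets. With the beta-actin ratio added to the fit, neither Relb nor Bcl3 was called in either genotype. Differences are between log2(signal + 32) values, which understates the change of dim genes. Each is given with its standard error from 1 limma fit over the 12 arrays, with 3 arrays per group and the naming set as a block, and with p-values adjusted over the 10583 genes at or above the level filter (a mean of 6.76).

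By count, 2 of 9 members were called higher and 0 lower in the controls at an adjusted p below 0.05, and 2 of 9 higher and 0 lower in the knockouts. The background is 10.6% of all genes tested called higher and 11.6% called lower in the controls, 22.1% in all, and 9.03% and 9.72%, 18.8% in all, in the knockouts. The share of members called is thus near that of all genes called in either direction, and the count by itself is not a result about the family. The median difference of the members was 0.53 in the controls and 0.36 in the knockouts, against -0.02 and -0.06 over all genes tested. In both genotypes 8 of 9 members lay above 0. With each array centred on its median this became 8 and 7 of 9, while all genes shifted to medians of -0.22 and -0.13, and Relb and Bcl3 stayed called.

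**Figure D1:**
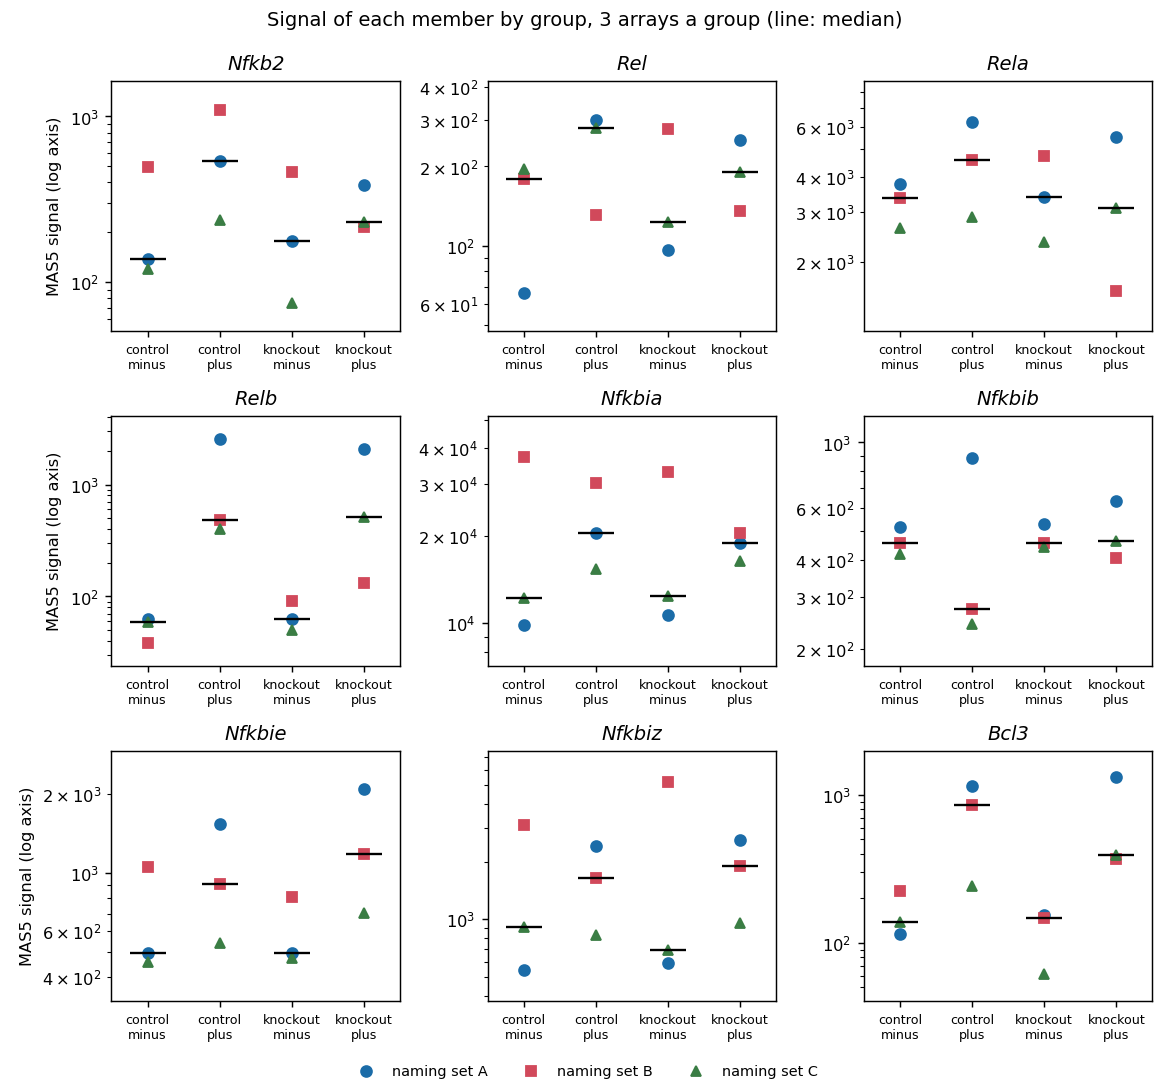
MAS5 signal of the 9 measured members (vertical axis, log scale) in the 4 groups, with 1 point per array, marked by naming set, and a line at the group median. In Relb and Bcl3 all 6 plus arrays lie above all 6 minus arrays, and in Nfkbia and Nfkbiz the set B minus arrays lie far above the other minus arrays.

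Relb (chr7:19606217-19629438) was dim in every minus array. Its signals were 62.4, 38.3 and 59.5 in control minus (sets A, B and C), 2560, 483 and 402 in control plus, 62.4, 90.3 and 50.1 in knockout minus, and 2060, 133 and 508 in knockout plus. All 6 plus arrays, from 133 to 2560, lay above all 6 minus arrays, from 38.3 to 90.3, and the set A plus arrays were by far the highest. All plus arrays lay above all minus arrays in 5.73% of the genes tested. The difference was 3.30 ± 0.61 in the controls (limma adjusted p = 0.00348, 95% interval 1.96 to 4.64) and 2.54 ± 0.61 in the knockouts (limma adjusted p = 0.0156, 1.20 to 3.88). By set it was 4.78, 2.87 and 2.25 in the controls and 4.47, 0.44 and 2.72 in the knockouts, so the gap in the set B knockouts was the smallest. The minus group means of Relb were below the level filter, which the gene passed only through its plus arrays. Without the filter it was also called (limma adjusted p = 0.00624 and 0.0276), and an added constant of 1 or 100 in place of 32 gave 3.90 or 2.59 in the controls and 2.97 or 2.02 in the knockouts, so no single fold is given for it.

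The call for Relb in the knockouts rested on few arrays. It was lost without set A (1.58, limma adjusted p = 0.0954) and without set C (2.45, 0.117). It was also lost when the knockout minus array of set A (1.90, 0.0716), that of set C (2.56, 0.0566) or the knockout plus array of set A (1.90, 0.0596) was left out. At the same difference it was lost with no block for the naming set (limma adjusted p = 0.123) and in a fit of the knockout arrays alone (0.0832). With the beta-actin ratio added to the fit, Relb was at 2.64 in the controls and 1.83 in the knockouts and was called in neither (limma adjusted p = 0.0724 and 0.275). In bulk RNA, more cells that carry a transcript and more of it per cell cannot be told apart.

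Nfkb2 (chr19:46300994-46312400), whose p100 protein is both a precursor of p52 and an inhibitor, gave different answers by probe set. The brighter one, 1429128_x_at, read 139, 499 and 120 in control minus and 537, 1100 and 238 in control plus (sets A, B, C). It read 177, 463 and 75.5 in knockout minus and 384, 217 and 231 in knockout plus. Plus and minus arrays overlapped in both genotypes, and the set B knockout pair ran downward. The differences of 1.22 ± 0.42 in the controls and 0.43 ± 0.42 in the knockouts did not pass (limma adjusted p = 0.0559 and 0.504). In the controls the gene was called in 9 of 29 alternatives, at the same difference of 1.22 in a fit of the control arrays alone (limma adjusted p = 0.00907) and without the knockout plus array of set B (0.00203), and at 1.87 with the mean of its probe sets (0.00583). The other probe set, 1425902_a_at, read 140, 28.9 and 106 in control minus and 1120, 479 and 433 in control plus, 159, 90.7 and 62.8 in knockout minus and 864, 140 and 449 in knockout plus. All 3 control plus arrays were above all 3 control minus arrays there, while the knockout groups overlapped through the set B plus array. In a fit over all 22551 probe sets above the filter, where 18.2% were called in the controls and 13.5% in the knockouts, this probe set rose by 2.52 ± 0.36 and 1.69 ± 0.36 (limma adjusted p = 0.0012 and 0.0113). In that fit 3 of 17 member probe sets were called in each genotype, this one and those of Relb and Bcl3. Between genotypes 0 of 17 were called in limma's test, in the minus or the plus arrays, against 0.00887% of all probe sets in each, and the lowest unadjusted p of a member gene there was 0.0539.

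Rela (chr19:5637442-5648134) encodes the main activating subunit of the canonical pathway. Its signals were 3780, 3360 and 2640 in control minus, 6260, 4590 and 2870 in control plus, 3380, 4730 and 2340 in knockout minus, and 5540, 1580 and 3100 in knockout plus. The groups overlapped, and the lowest value of all was the knockout plus array of set B. The differences of 0.43 ± 0.34 and -0.15 ± 0.34 did not pass (limma adjusted p = 0.396 and 0.79). In the knockouts the sets gave 0.71, -1.56 and 0.40, so that without set B the sign turned, to 0.56 (limma adjusted p = 0.0436).

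Rel (chr11:23736847-23770969), which encodes c-Rel, a subunit abundant in lymphoid and myeloid cells, was dim. It read 66.5, 180 and 196 in control minus, 301, 131 and 279 in control plus, 96.7, 278 and 123 in knockout minus, and 253, 136 and 190 in knockout plus. The plus array was the higher of its pair in sets A and C and the lower in set B, in both genotypes. The differences of 0.61 ± 0.43 and 0.26 ± 0.43 did not pass (limma adjusted p = 0.342 and 0.713).

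Nfkbia (chr12:55489409-55492647), which encodes IkB-alpha, the inhibitor that NF-kB itself induces, is measured by 5 probe sets. The brightest, 1420088_at, read 9900, 37100 and 12200 in control minus, 20400, 30300 and 15400 in control plus, 10700, 33000 and 12400 in knockout minus, and 18900, 20400 and 16300 in knockout plus. The set B minus arrays were the highest of their groups, at 33000 to 37100 against 9900 to 12400 in the other minus arrays. All 5 probe sets were higher in the plus array of set A, lower in that of set B and higher in that of set C, in each genotype. The differences, 0.36 ± 0.27 and 0.17 ± 0.27, did not pass (limma adjusted p = 0.37 and 0.691). Without set B they were 0.69 and 0.61, and both were called (limma adjusted p = 0.0144 and 0.0261).

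The IkB-epsilon gene Nfkbie (chr17:45555700-45563169) came closest to a call in the knockouts. Its brighter probe set read 496, 1050 and 456 in control minus, 1540, 904 and 540 in control plus, 496, 806 and 475 in knockout minus, and 2080, 1180 and 703 in knockout plus. Every knockout plus array was above the minus array of its own set, while the groups overlapped. The difference was 1.02 ± 0.35 in the knockouts (limma adjusted p = 0.0597) and 0.53 ± 0.35 in the controls (limma adjusted p = 0.301). The dimmer probe set was at 0.63 in the knockouts, with set B at -0.21, and 0.59 in the controls.

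Nfkbib (chr7:28758251-28766644), the IkB-beta gene, was the only member below 0 in the controls. It read 517, 455 and 418 in control minus, 887, 273 and 242 in control plus, 530, 455 and 443 in knockout minus, and 635, 406 and 462 in knockout plus. The 6 minus arrays were close together, and among the control plus arrays set A was the highest and sets B and C the lowest. The differences, -0.22 ± 0.30 and 0.05 ± 0.30, did not pass (limma adjusted p = 0.643 and 0.922). Its other probe set lay below the level filter, the only 1 of the 18 to do so, and was not tested.

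Bcl3 (chr7:19808462-19822824) rose in both genotypes. It read 115, 225 and 138 in control minus, 1150, 847 and 243 in control plus, 154, 147 and 61.2 in knockout minus, and 1310, 369 and 389 in knockout plus. All 6 plus arrays, from 243 to 1310, lay above all 6 minus arrays, from 61.2 to 225. The difference was 1.83 ± 0.43 in the controls (limma adjusted p = 0.0118; sets 3.01, 1.78 and 0.69) and 2.06 ± 0.43 in the knockouts (limma adjusted p = 0.00833; sets 2.85, 1.16 and 2.17). In the controls the call was lost without set A (1.24, limma adjusted p = 0.103), and without the minus array of set A (1.27, 0.0587), the plus array of set A (1.60, 0.053) or that of set B (1.65, 0.0608). In the knockouts it was lost without set A (1.67, limma adjusted p = 0.0512) or set C (2.01, 0.0694). With no block for the naming set, which rests on the form of the titles, it was lost in both genotypes (limma adjusted p = 0.103 in the controls and 0.0891 in the knockouts). With the beta-actin ratio added to the fit it was at 1.73 and 1.96 and was called in neither genotype (limma adjusted p = 0.103 and 0.119).

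Nfkbiz (chr16:55811375-55838954), which encodes IkB-zeta, a nuclear co-activator of a subset of NF-kB targets, split by naming set and by probe set. Its brightest probe set, 1417483_at, read 548, 3090 and 909 in control minus, 2410, 1640 and 827 in control plus, 594, 5180 and 695 in knockout minus, and 2600, 1890 and 963 in knockout plus. The plus array was the higher in set A and the lower in set B in both genotypes, with set differences of 2.07, -0.90 and -0.13 in the controls and 2.07, -1.43 and 0.45 in the knockouts. The fitted differences, 0.35 ± 0.59 and 0.36 ± 0.59, did not pass (limma adjusted p = 0.712 and 0.7). A different probe set, 1457404_at, ran the other way, at -1.07 ± 0.51 and -1.29 ± 0.51, and did not pass either (limma adjusted p = 0.162 and 0.111). The remaining one, 1448728_a_at, was at 0.95 ± 0.73 in the controls and -0.21 ± 0.73 in the knockouts, where set B was at -2.90, and did not pass (limma adjusted p = 0.397 and 0.881).

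**Figure D2:**
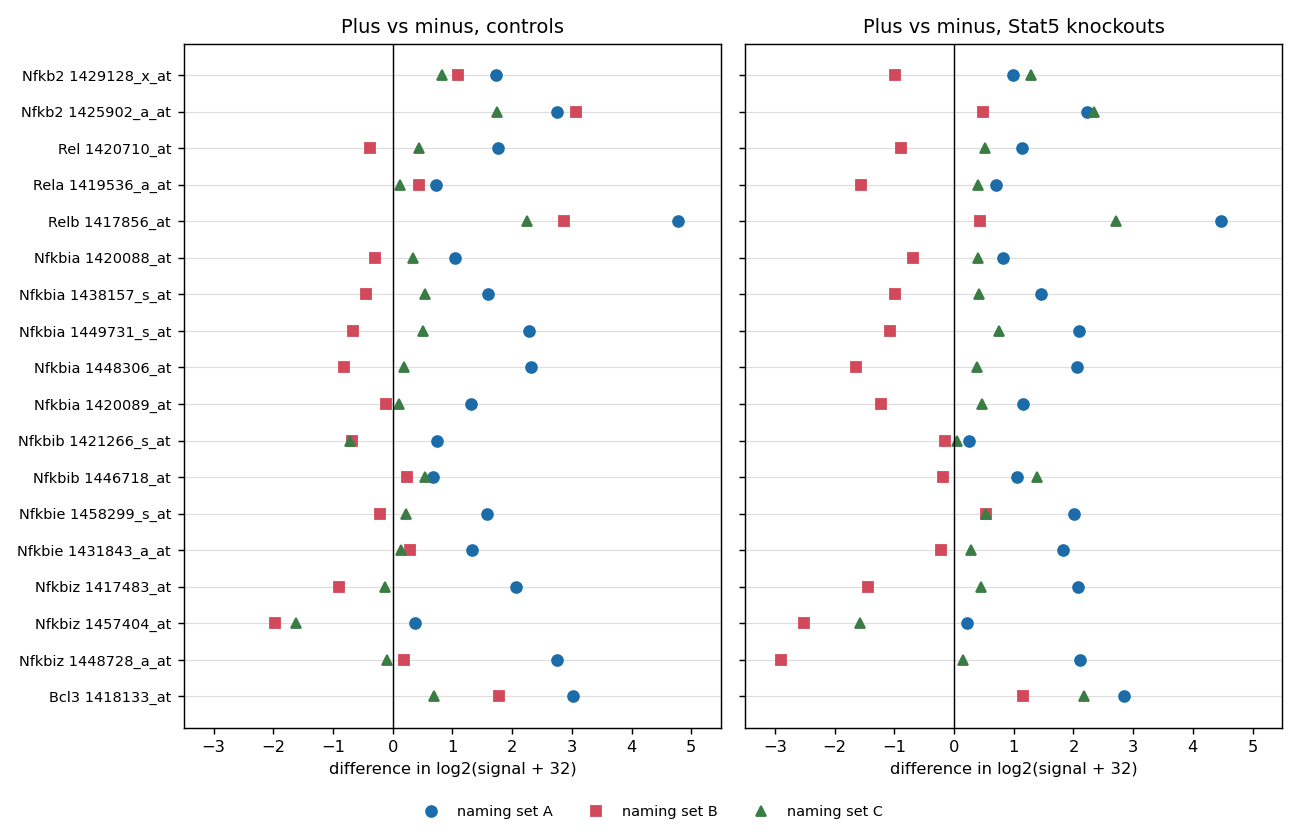
Difference in log2(signal + 32) between the plus and the minus array of each naming set (horizontal axis), for the 18 member probe sets, in the controls (left) and the Stat5 knockouts (right). Relb, Bcl3 and the 1425902_a_at probe set of Nfkb2 lie above 0 in every set, while set B lies below 0 for all 5 Nfkbia probe sets in both panels.

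The plus differences of the members were not alike in the 3 naming sets. In set A all 9 members were higher in the plus array in both genotypes, with a median difference of 1.73 in the controls and 1.15 in the knockouts. In set B only 4 of 9 were higher in the controls and 3 of 9 in the knockouts, with medians of -0.21 and -0.69. In set C 7 and 9 of 9 were higher, with medians of 0.34 and 0.51. Over all genes tested the corresponding medians stayed between -0.11 and 0.03. Set B is also the set with the high beta-actin ratios, and its minus arrays were those with high Nfkbia and Nfkbiz signals. Set A, where all 9 members were higher, had the largest increase of the 3′ to 5′ ratio from minus to plus, at 1.35 and 1.63 (log2, controls and knockouts) for beta-actin and 2.17 and 2.31 for Gapdh. Its plus arrays had log2 Gapdh ratios of 4.56 and 3.89, against 4.72 to 6.09 in set B. Without set B, 5 of 9 members were called higher in the controls (Relb, Bcl3, Nfkb2, Rel and Nfkbia) and 6 of 9 in the knockouts (Relb, Bcl3, Nfkb2, Rela, Nfkbia and Nfkbie). In those fits 13% and 12% of all genes tested were called higher (29% and 25% in either direction). The members added in the controls, Nfkb2, Rel and Nfkbia, were then at 1.28, 1.10 and 0.69. Without the array of conflicting labels the counts were 2 and 2, and with it taken as a control they were 3 and 2, with Nfkb2 added in the controls (1.13, limma adjusted p = 0.0459).

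The genes around the members were read from lists of the pathway, which were chosen with earlier results of these data known. Among established targets of NF-kB, 31 of 45 listed genes were tested, and 16 were called higher and 0 lower in each genotype, with median differences of 1.11 in the controls and 0.97 in the knockouts. For this and the lists that follow, the background over all genes tested was 10.6% called higher and 11.6% lower in the controls. In the knockouts it was 9.03% and 9.72%. Ehd1, a regulator of endocytic recycling, rose by 1.75 ± 0.18 and 1.52 ± 0.18 (limma adjusted p = 0.00011 and 0.000341). Icam1, an adhesion molecule, rose by 1.88 ± 0.23 and 1.77 ± 0.23. Cd83, a marker of activated antigen-presenting cells, rose by 2.42 ± 0.36 in the knockouts, from a group mean below the level filter. In the controls the mean log2 value of Cd83 was 5.70 in minus arrays, also below the filter, and 8.70 in plus arrays. Its difference in the knockouts minus that in the controls was -0.58 ± 0.50 and did not pass (limma adjusted p = 0.954). Traf1, an adaptor of TNF receptors, rose by 2.45 ± 0.48 and Clec4e, a receptor for mycobacterial glycolipid, by 2.53 ± 0.38 in the knockouts, and both rose in the controls too (limma adjusted p = 0.0015 and 0.00268). The set medians of the targets were 1.56, 1.12 and 0.62 in the controls and 1.46, 0.61 and 0.93 in the knockouts, above 0 in set B too. With the beta-actin ratio added to the fit 8 targets were called in the controls and 3 in the knockouts, and with set A left out 10 and 6. Of all genes tested, 14.4% and 6.14% were called in either direction with the ratio added. Without set A the shares were 9.97% and 6.42%.

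**Figure D3:**
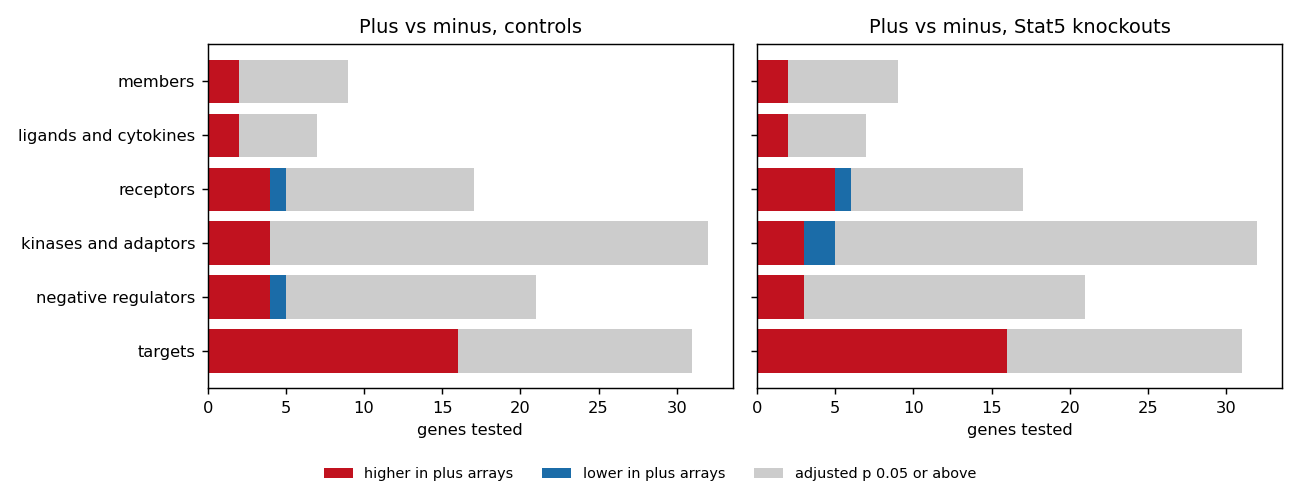
Genes tested in each list (horizontal axis, number of genes), split by colour into those called higher in plus arrays, those called lower and those with an adjusted p of 0.05 or above, in controls (left) and Stat5 knockouts (right). Of 31 targets 16 were called higher in each genotype, and of 9 members 2.

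Of the ligands that start the pathway, 7 of 12 were tested and 2 were called higher in each genotype. Tnfsf4, the OX40 ligand, rose by 1.82 ± 0.24 in the controls and 1.76 ± 0.24 in the knockouts (limma adjusted p = 0.000624 and 0.000876). Ltb, a subunit of the lymphotoxin that drives the non-canonical pathway, rose by 1.90 ± 0.45 in the controls and was at 1.11 ± 0.45 in the knockouts (limma adjusted p = 0.0114 and 0.105). Tnfsf9, the ligand of 4-1BB, was at 0.65 ± 0.24 in the controls and rose by 1.60 ± 0.24 in the knockouts (limma adjusted p = 0.07 and 0.00122). Il1b was at 1.06 in the controls and Tnf at 1.04 in the knockouts, and neither passed (limma adjusted p = 0.119 and 0.156).

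Of 21 receptors 17 were tested, with 4 called higher and 1 lower in the controls and 5 higher and 1 lower in the knockouts. Cd14, the co-receptor for lipopolysaccharide, rose by 2.03 and 1.85, and Tnfrsf1b, a receptor of TNF, by 1.36 and 1.32. Il18rap, the accessory chain of the IL-18 receptor, rose by 1.03 and 1.16. Tlr4, the lipopolysaccharide receptor, rose by 1.25 in the controls. In the knockouts its mean log2 value was 6.62 in minus arrays, below the level filter, and 7.86 in plus arrays. The difference of Tlr4 in the knockouts minus that in the controls was -0.0017. Tlr2, a receptor for bacterial lipoprotein, rose by 1.57 in the knockouts and was at 0.80 in the controls (limma adjusted p = 0.119). The 1 lower receptor in each genotype was Cd27, a receptor of the TNF receptor family, at -0.82 and -1.02, named after its values were seen. Cd14 is also a monocyte marker: the summed signal of the 5 monocyte and macrophage markers was 4444 to 8804 in control minus and 6174 to 11558 in control plus. It was 7925 to 14521 in knockout minus and 11103 to 26952 in knockout plus. Csf1r made most of this sum, with a median signal of 8219, against 443 for Cd68, the next brightest. Of the 4 tested markers, 4 lay above 0 in the controls and 2 in the knockouts. Only Cd14 was called, and in the knockouts Adgre1 was at -0.08 and Cd68 at -0.09. The summed signal of the 5 progenitor markers was lower in the plus arrays, at 26993 to 28737 against 33001 to 39304 in the controls and 14928 to 30807 against 33273 to 38187 in the knockouts. Only Cd34 was called lower among them, at -1.07 and -1.04, and Kit lay above 0, at 0.29 and 0.16. The summed signal of the erythroid markers, 3 of 4 above the filter, was 1950 to 7438 in control minus and 662 to 1613 in control plus, and 1797 to 5728 and 486 to 983 in the knockouts. The summed signal of the NK cell markers, 3 of 4 above the filter, was 4787 to 5732 in control minus and 1618 to 2512 in control plus, and 4588 to 5719 and 2726 to 3200 in the knockouts. These markers did not move together. Nkg7 was called lower, at -2.02 in the controls and -1.96 in the knockouts. Klrd1 was called higher, at 1.56 and 2.35, and Prf1 was at 0.53 and 0.41 and did not pass. That of the 4 measured mast cell and basophil markers was 6322 to 7791 in control minus and 1484 to 3752 in control plus, and 6262 to 8370 and 1029 to 6450 in the knockouts. The part of these cell types in the changes of the members was not tested.

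Of 39 kinases and adaptors 32 were tested, with 4 called higher and 0 lower in the controls and 3 higher and 2 lower in the knockouts. Over all genes tested, 22.1% and 18.8% were called in either direction, so this list was not called more often than all genes. Map3k8, the kinase TPL2 that is held by the p105 product of Nfkb1, rose by 2.68 ± 0.31 and 2.39 ± 0.31 (limma adjusted p = 0.000256 and 0.000606), from a group mean below the level filter. Malt1, the paracaspase that links antigen and lectin receptors to NF-kB, rose by 1.68 ± 0.21 and 0.71 ± 0.21. Irak2 and Tirap, which relay signals of Toll-like receptors, rose by 1.17 and 0.90 in the controls. In the knockouts the mean log2(signal + 32) of minus and plus arrays was 7.98 and 8.65 for Irak2, and 9.09 and 9.99 for Tirap. Ikbkg, the regulatory subunit of the IkB kinase, rose by 0.74 in the knockouts and was at 0.31 in the controls (limma adjusted p = 0.308). Rbck1, part of the linear ubiquitin ligase, fell by 0.99 in the knockouts and was at -0.77 in the controls (limma adjusted p = 0.0736).

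Of 23 negative regulators outside the IkB family 21 were tested, with 4 called higher and 1 lower in the controls and 3 higher and 0 lower in the knockouts. In either direction these counts were near the shares of all genes called, 22.1% and 18.8%. Nlrc3, a brake on TRAF signalling, rose by 1.63 ± 0.25 and 1.03 ± 0.25, Tnip1, a partner of A20, by 1.01 and 1.19, and Nkiras2, a kappaB-Ras protein, by 0.71 and 1.07. Commd1, which promotes the turnover of RelA, fell by 1.02 in the controls. Cyld, a deubiquitinase, was at 0.54 in the knockouts and did not pass (limma adjusted p = 0.0502). The medians over the 2 lists, 0.14 and 0.08 for kinases and adaptors and 0.23 and 0.21 for negative regulators, were closer to that of all genes than the medians of the targets.

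Loss of Stat5 was compared with the controls in the minus and in the plus arrays, and no member passed in either. In the minus arrays 0 of 9 members were called in limma's test, and 0 had an unadjusted p below 0.05, against 0.0189% of all genes called and 2.36% below an unadjusted 0.05. The largest member difference there was Bcl3 at -0.35 ± 0.43 (95% interval -1.30 to 0.60). Relb was at 0.21 with an interval of -1.13 to 1.56, and Nfkbia at -0.01 with -0.61 to 0.59. The intervals of Relb and Bcl3 thus include changes of 2-fold in at least 1 direction, which 3 arrays a group could not resolve.

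In the plus arrays 0 of 9 members were called in limma's test and 0 had an unadjusted p below 0.05, against 0.0189% of all genes called and 9.81% below an unadjusted 0.05. Nfkb2 was at -0.89 ± 0.42 (limma adjusted p = 0.507, interval -1.81 to 0.02), with set values of -0.45, -2.19 and -0.04, so that set B held most of the difference. Relb was at -0.54 (-1.89 to 0.80), Rela at -0.53 (-1.27 to 0.22) and Bcl3 at -0.11 (-1.06 to 0.84). Nfkbie was at 0.39 (-0.37 to 1.15), above 0 in 3 of 3 sets. Its dimmer probe set was at -0.05, with set values of 0.40, -0.66 and 0.10. Of the pathway lists 0 genes were called in either comparison. The smallest unadjusted p among them was that of Malt1 in the plus arrays (95% interval -1.47 to -0.54, limma adjusted p = 0.47), lower in 3 of 3 sets, and Tnfsf9 was at 0.90 ± 0.24 (limma adjusted p = 0.507), higher in 3 of 3.

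**Figure D4:**
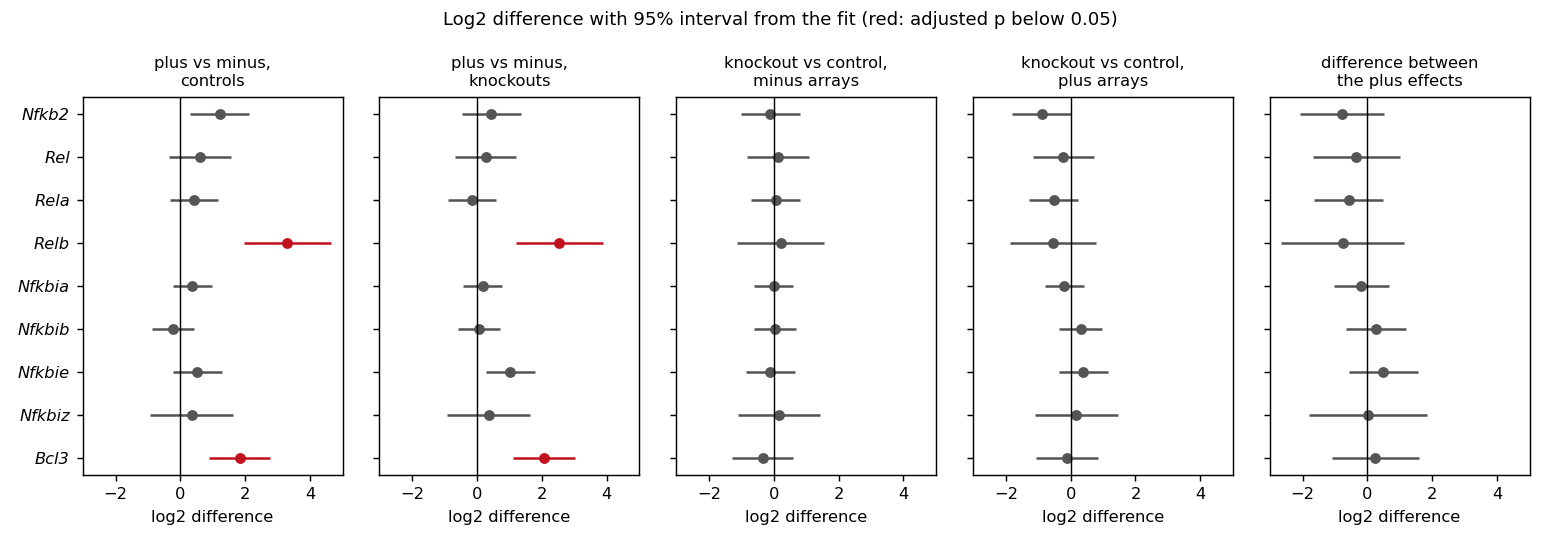
Difference in log2(signal + 32) of the 9 tested members (point) with its 95% interval from the fit (line) in the 5 comparisons. Relb and Bcl3, in red, pass at an adjusted p below 0.05 in the 2 comparisons of plus with minus arrays, and no member passes in the other 3.

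Whether the plus difference itself depended on genotype was tested as an interaction, the difference in the knockouts minus that in the controls. For the members 0 of 9 were called in limma's test and 0 had an unadjusted p below 0.05, against 0% of all genes called and 2.11% below an unadjusted 0.05. The interaction of Relb was -0.76 ± 0.87 (limma adjusted p = 0.954, interval -2.66 to 1.14), with set values of -0.31, -2.44 and 0.47. That of Bcl3 was 0.23 ± 0.62 (-1.11 to 1.58), that of Nfkb2 -0.79 ± 0.59 (-2.08 to 0.50) and that of Nfkbie 0.49 ± 0.49 (-0.58 to 1.57). For the dimmer Nfkbie probe set the interaction was 0.05. Malt1 was at -0.97 ± 0.30 and Tnfsf9 at 0.96 ± 0.33 (limma adjusted p = 0.954 for each). The intervals are wide, so that a dependence of Relb on Stat5 of more than 2-fold in either direction was not resolved. These comparisons share arrays with those of plus and minus.

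The genes whose pattern was nearest to that of each called member were found by the root mean square difference over the 12 arrays between log2 values centred on each gene's mean. For Relb, whose own root mean square around its mean was 1.76, they were Rsad2 (0.58), Map3k8 (0.63) and Cp (0.75), against a median of 1.82 over all genes. For Bcl3, with 1.19 around its own mean, they were Stk40 (0.39), Tmem140 (0.46) and 2900052L18Rik (0.46), against a median of 1.28. Between Relb and Bcl3 the value was 0.86, the smallest of Relb with another member, while Bcl3 was nearer to Nfkbie (0.72) and Nfkb2 (0.84). All 3 genes nearest to Relb were nearer to it than any other member was.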

How the data were processed

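Signals are linear intensity values per probe set, which the authors made with MAS5, per the submitters' processing notes, and deposited as 1 table. Version, scaling target and detection calls are not given in the sources used here. The probe table pairs 34958 probe sets with 1 gene symbol, 932 with several and 9211 with none. A gene was its 1-symbol probe set with the highest mean log2(signal + 32), kept at or above the median of all probe sets, 6.76. In limma 3.58.1 (R 4.3.3), lmFit and eBayes with a trend were fitted over 12 arrays with 4 groups and the naming set as a fixed block (6 residual and 5.78 prior degrees of freedom), two-sided, with Benjamini-Hochberg adjustment and a threshold of 0.05. The chain was tested on simulated data. The naming set pairs arrays: deviations from group means correlated at 0.41 to 0.77 in 18 pairs within a set and at -0.64 to 0.28 in 36 pairs of different set and group. Where arrays of a set correlate, centring each group of 3 on its own mean lowers the second range by construction. No 2 arrays were duplicates (highest correlation 0.989). Named genes are all members, up to 4 genes per list and comparison with the smallest p, and the 3 most like each called member. Members, lists and tests were chosen with earlier results of these data known. Alternatives covered the constant, scaling, filter, probe sets, block, variance prior, the array of conflicting labels, the beta-actin ratio, the groups fitted, and leaving out arrays or sets.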

Additional observations from a re-analysis of the deposited data

How the results depend on the processing

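Each comparison was refitted under 29 alternatives (28 for the interaction). The 0 members called in the 2 knockout comparisons and the interaction held under all of them. Of the plus comparisons, Relb was called in the controls in 28 of 29 and in the knockouts in 21, and Bcl3 in 23 and 25, with no change of sign. With no replicate block, 1 member was called in the controls and 0 in the knockouts, and 0 member probe sets in each. With the beta-actin ratio added to the fit 0 members were called in either, and with only the groups compared 3 in the controls, Nfkb2 added, and 1 in the knockouts. Without set A the counts were 1 and 0, without set B 5 and 6, and without set C 0 in the knockouts. Leaving out 1 array at a time gave counts of 1 to 3 for the controls and of 1 to 4 for the knockouts, the 4 being without the knockout plus array of set B. Rela in the knockouts turned from -0.15 to 0.56 without set B. The cause was not tested. Signs that turned with no call on either side are not counted here. Over all genes, the 2344 called in the controls became 470 with no replicate block and 571 without set C, and the 1985 in the knockouts became 298 and 356. With the beta-actin ratio added they became 1519 and 650, without set A 1055 and 679, and without set B 3074 and 2648. With only the groups compared the knockouts gave 662, and with the array of conflicting labels left out or taken as a control 1000 and 972. Leaving out 1 array gave as few as 1291 in the controls and 937 in the knockouts. The 2 genes called between genotypes in the plus arrays became 0 to 4, and those in the minus arrays 0 with that array taken as a control. With centred arrays 27.8% of the calls in the controls were higher and 37.5% in the knockouts, against 47.7% and 48.2%. Signals near the array medians, such as those of Relb in minus arrays, limit the size of a fold.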
